A study of Oryctolagus cuniculus with 12 samples.

Results

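The aorta above an uncorrected coarctation was compared with the same stretch of aorta from rabbits without one. Members were taken from the sample labels, 4 CoA arrays and 4 Control arrays of the 12 arrays in the study, with each array taken as 1 rabbit. All were male New Zealand white rabbits harvested at 32 weeks of age. CoA rabbits had a permanent silk suture tied around the proximal descending thoracic aorta at about 10 weeks, which imposed a blood pressure gradient of 20 mmHg. Controls were non-experimental animals, and no sham operation was done, so that surgery and the pressure load cannot be told apart. The tissue was a frozen ring of about 4 mm from between the suture and the left subclavian artery, with whatever fat, nerve, blood and adjoining tissue it carried. RNA was labeled with 1 dye and read on an Agilent rabbit array. The remaining 4 arrays, from rabbits with a degradable suture, are not described here.

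The wall of the upper thoracic aorta is built mainly of smooth muscle cells between sheets of elastin and collagen, with an endothelium inside and an outer adventitia of fibroblasts, nerves and perivascular fat. In rabbits and other small mammals part of that fat is brown or beige and burns lipid for heat. A narrowing raises pressure and pulsation upstream of it, and smooth muscle cells under such a load are known to thicken the wall, to lay down matrix and to loosen their contractile program. The comparison asks which transcripts differed in the loaded wall.

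Signals are log2 values of Agilent's background-corrected intensity, quantile normalized over the 12 arrays, so that 1 unit is a doubling. A probe was tested when it was detected on at least 8 of the 12 arrays, as 27283 of 43603 probes were. Gene symbols came from the RefSeq accessions of 3368 probes (7.72%), and 958 genes had a tested probe, the brightest of which stands for the gene. Between 69.7% and 77.7% of spots were well above background on the Control arrays, against 55.8% to 69.7% on the CoA arrays. All 4 CoA arrays shared a scan time with no array of another group, so scan and group cannot be told apart. Control replicates 1, 2 and 4 shared another scan time, and Control replicate 3 was scanned on another day.

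A few arrays stood apart. CoA replicate 2 was the least like the others, with r = 0.856 to 0.901, and carried a muscle signal that no other array had. SRL, which encodes sarcalumenin of the sarcoplasmic reticulum, had a log2 signal of 13.55 on that array and 3.40 to 4.53 on the other 7. The muscle creatine kinase CKM was at 13.28 there and at 3.87 to 6.43 elsewhere, and the cardiac ryanodine receptor RYR2 was at 14.01 against 8.61 to 10.40. Over the 11 measured genes of a cardiac muscle list, the median signal of CoA replicate 2 lay 1.53 above the mean of the 8 arrays, while the other arrays lay between -0.75 and 0.31. Over 18 skeletal muscle genes it lay 1.37 above, against -0.36 to 0.09 for the others. The same array was also the highest in lists that are not of muscle, at 1.06 for endothelium, 0.84 for solute carriers, 0.84 for ion channels and 0.69 for vasoactive and transmitter receptors. SRL, CKM and RYR2 were picked after their values were seen. Control replicates 3 and 4 were nearly alike, with r = 0.993 across probes and an SD of their log2 difference of 0.19. In every other pair of the 8 arrays that SD was 0.31 to 1.20. The labels give Control replicates 3 and 4 as separate samples, and whether they came from separate rabbits was not tested. The main fit counts them as 2 samples. Control replicate 2 correlated with CoA replicates 1, 3 and 4 at r = 0.968 to 0.977 and with the other Controls at 0.946 to 0.951. Results below are therefore read with and without CoA replicate 2, and with Control replicates 3 and 4 counted as 1 sample.

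Among the 958 genes, 104 differed by more than 2-fold with an unadjusted p under 0.05 in limma, 43 higher and 61 lower in CoA. These are 4.49% and 6.37% of the genes, the shares to set beside the counts in the gene lists below. Over all probes tested the same criterion called 8.81%, with 3.59% higher and 5.22% lower, a somewhat smaller share than among the named genes. After Benjamini-Hochberg adjustment in limma over all probes, 0 passed, with a smallest adjusted p of 0.217, while 3877 probes had an unadjusted p under 0.05. The adjusted p of the 104 genes ran from 0.217 to 0.352. A test of each probe without moderation also gave 0 after adjustment, and 3937 at an unadjusted p under 0.05. "Called" below therefore means past the fold and the unadjusted p, and nothing more. For 18 of the 43 higher and 20 of the 61 lower genes, no Control array overlapped a CoA array. Of all the probes, 6.87% were free of overlap with CoA higher and 3.37% with CoA lower. The exact permutation p of a gene with groups that do not overlap is 0.0286 (two-sided), the smallest that 4 arrays against 4 allow.

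Most of these calls depended on at least 1 single array. Left out 1 at a time, each of the 8 arrays could be spared for 16 of the higher and 22 of the lower genes. Without CoA replicate 2, 26 of the 43 higher and 35 of the 61 lower genes kept their call, and with Control replicates 3 and 4 as 1 sample, 26 and 31 did. The count of called genes was 83 without CoA replicate 2. It was 68 and 60 when Control replicate 3 or 4 was left out, and 156 when Control replicate 2 was. Replacing quantile normalization by a scaling to the 75th percentile of each array moved the median log2 fold change of the named genes from 0.08 to 0.28. It turned the split to 72 higher and 45 lower. The same scaling moved the median over all probes from 0.06 to 0.22, so a log2 fold change of 1 lies that much closer to or farther from the bulk of the probes.

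**Figure D1:**
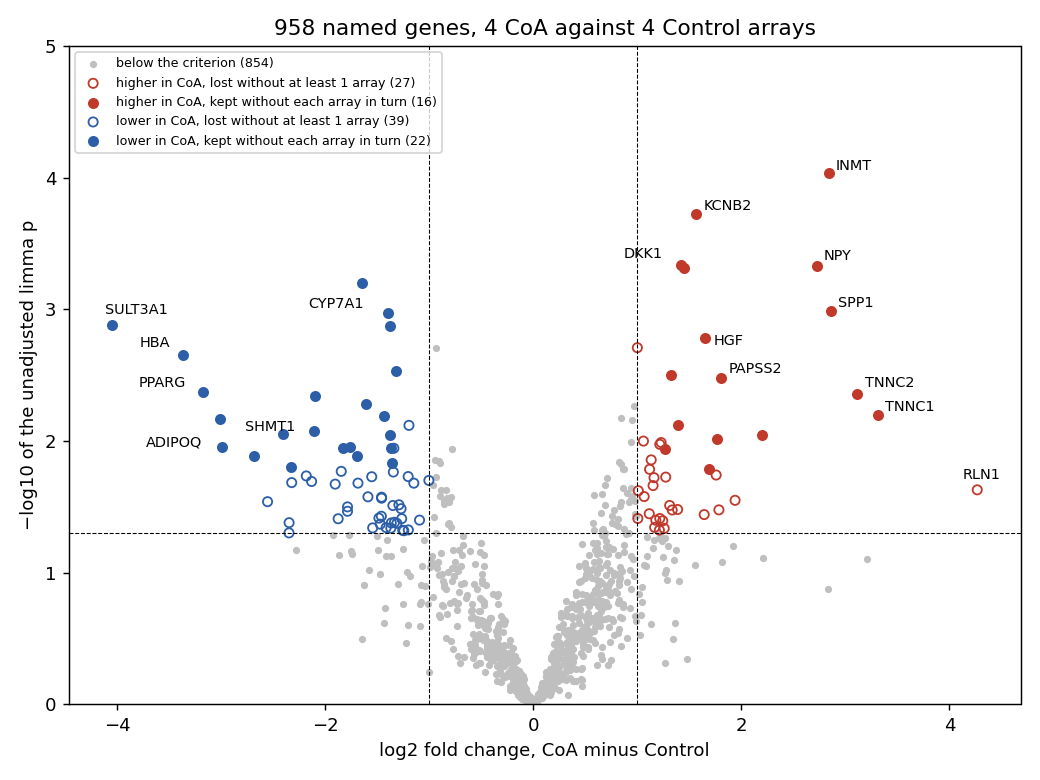
Each point is 1 of the 958 named genes, with the log2 fold change of CoA minus Control on the x axis and minus log10 of the unadjusted limma p on the y axis. Dashed lines mark the fold and p criterion. Filled points kept their call without each of the 8 arrays in turn (16 higher, 22 lower), and open points lost it without at least 1. INMT had the smallest p, RLN1 the largest fold change upward and SULT3A1 the largest downward.

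Within the groups the called genes did not lie evenly. Among the 61 lower genes, Control replicate 2 was the lowest Control for 46, and it lay inside the range of the CoA arrays for 33. Over all 958 genes it was the lowest Control for 323. CoA replicate 3 was the highest CoA array for 42 of the 61, and for 191 of all 958 genes. Among the 43 higher genes, Control replicate 2 was the highest Control for 27 and CoA replicate 3 the lowest CoA array for 26. Over all 958 genes those counts were 267 and 312. Measured against the mean of its own group's other arrays, Control replicate 2 was lower by a median of 1.25 on the log2 scale in the genes lower in CoA, and CoA replicate 3 was higher by 0.84. So in both directions Control replicate 2 stood on the side of CoA, and CoA replicate 3 on the side of Control.

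**Figure D2:**
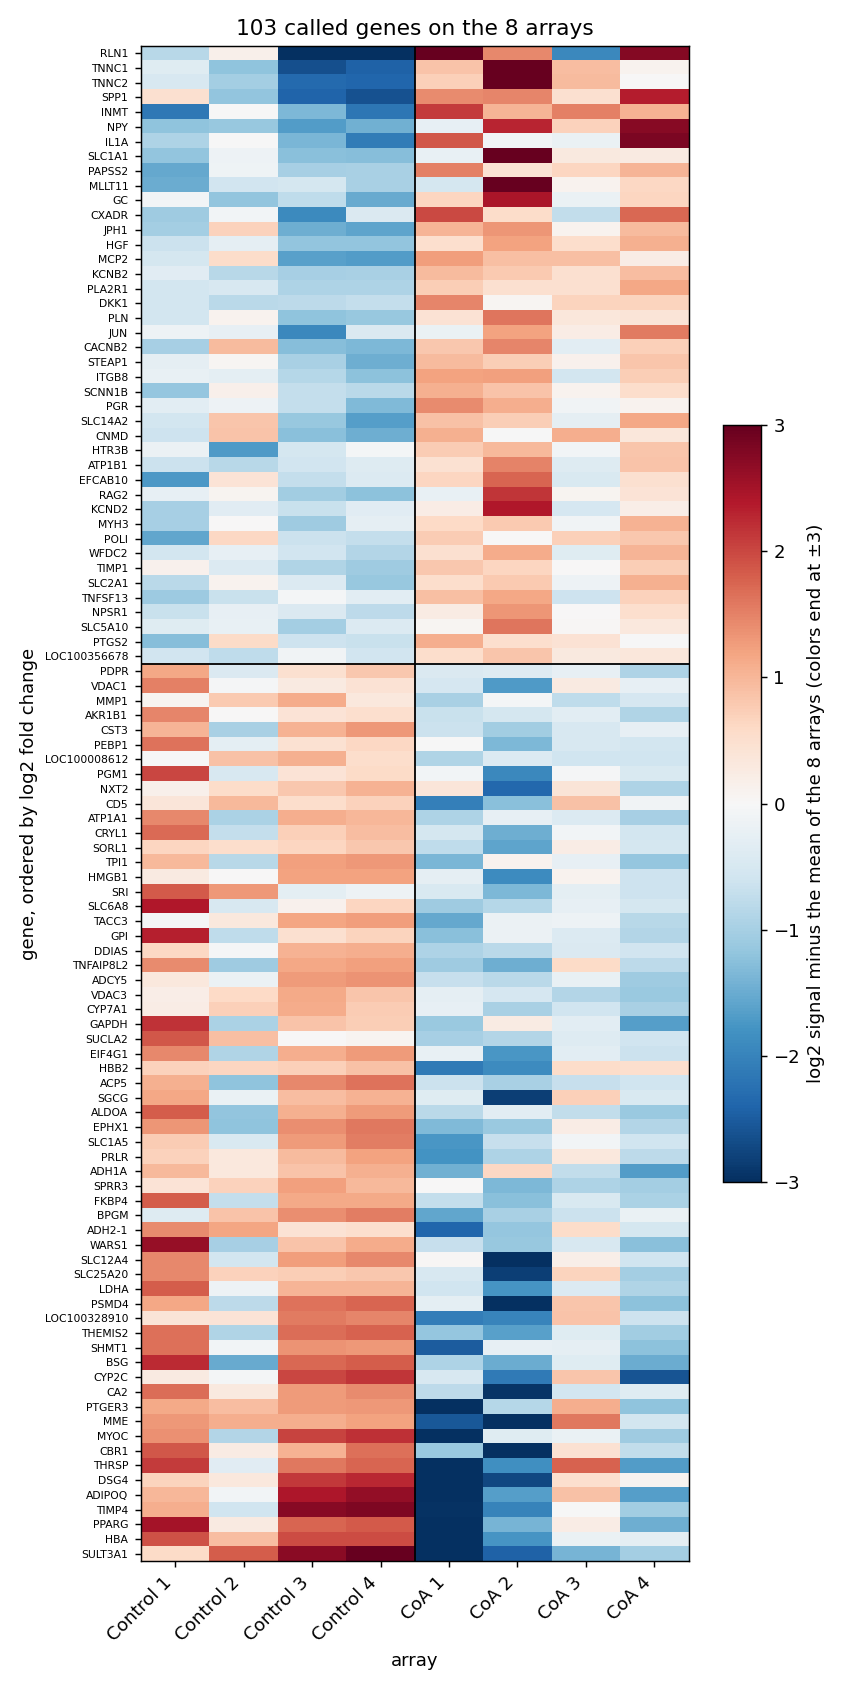
The called genes but 1, 103 in all (rows, ordered by log2 fold change) on the 4 Control and 4 CoA arrays (columns). Color gives the log2 signal minus the gene's mean over the 8 arrays, and colors end at 3 either way. The column of Control replicate 2 is paler than those of Control replicates 3 and 4, and CoA replicate 2 is the brightest column for TNNC1, TNNC2, SLC1A1 and MLLT11. SLC1A1 and MLLT11 are outside the naming rule and were picked after their values were seen.

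The genes highest above Control with groups that do not overlap were troponin C genes, osteopontin, INMT and neuropeptide Y. TNNC1 encodes the calcium-binding troponin of heart and slow muscle. Its log2 signal was 11.11, 10.26, 8.83 and 9.04 on Control replicates 1 to 4 and 12.32, 16.21, 12.39 and 11.56 on CoA replicates 1 to 4. CoA replicate 2 was far above the rest, but the 3 other CoA arrays also lay above every Control. The log2 fold change was 3.31 ± 0.99 (standard error; adjusted p = 0.257 in limma), and 2.28 without CoA replicate 2. TNNC2, its counterpart in fast muscle, followed nearly the same order with 10.02, 9.49, 8.17 and 8.12 in Control and 11.21, 15.07, 11.45 and 10.53 in CoA. On the log2 scale the difference was 3.12 ± 0.87, and 2.12 without CoA replicate 2. Both genes had 1 tested probe, and both groups were above background on every array. The signals of TNNC1 and TNNC2 moved almost in step over the arrays, so they may not be separate results. Whether each probe reads only its own transcript was not tested. In a ring of mixed tissue, more cells of a type and more RNA per cell cannot be told apart, and the part of muscle tissue in these values was not tested.

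With all 8 arrays and quantile normalization, the troponins were the only called genes of the cardiac and skeletal muscle lists. Of 11 cardiac genes only TNNC1 was called, but all 11 log2 fold changes were above 0. Their median was 0.70, beside 0.08 over all named genes. Without CoA replicate 2 it was 0.47, beside 0.006 over all named genes. With 75th percentile scaling, 3 cardiac genes were called higher. Of 18 skeletal muscle genes only TNNC2 was called, and the median of 0.39 became 0.02 without CoA replicate 2, where 2 genes were called lower. CASQ2, the calcium store of the cardiac sarcoplasmic reticulum, had 11.92, 11.76, 10.20 and 10.15 in Control. On CoA replicates 1, 3 and 4 it had 10.99, 9.68 and 10.52, none above the Control range, and it had 14.50 on CoA replicate 2. The atrial peptide gene NPPA was at 4.40 to 5.53 in Control and 5.11 to 6.96 in CoA. The fast muscle genes MYH1 and ATP2A1 were dim, with 3 of 4 and 1 of 4 CoA arrays well above background, and their log2 fold changes were -0.31 ± 0.75 and -0.80 ± 0.78. CASQ2 and NPPA were picked after their values were seen.

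Of the smooth muscle genes, 1 of 8 was called. PLN encodes phospholamban, which restrains the calcium pump of the sarcoplasmic reticulum in heart and smooth muscle. It had 11.24, 11.90, 10.59 and 10.67 in Control and 12.23, 13.41, 12.13 and 12.19 in CoA, a log2 fold change of 1.39 ± 0.43 (adjusted p = 0.262 in limma). All 7 of its tested probes passed the criterion, with log2 fold changes of 1.18 to 1.42. The call held without CoA replicate 2, at 1.09. The pump itself, ATP2A2, differed by 0.54 ± 0.36 and was not called. The contractile genes ACTA2 (smooth muscle actin) and MYH11 (smooth muscle myosin) had log2 fold changes of 0.12 ± 0.46 and 0.19 ± 0.47, which reversed to -0.09 and -0.08 with Control replicates 3 and 4 as 1 sample. ACTA2 was at 16.26 and 16.19 on Control replicates 1 and 2, at 14.92 and 14.98 on Control replicates 3 and 4, and between 14.47 and 16.37 in CoA. Control arrays thus differed among themselves more than the group means did. CALD1, the actin-binding caldesmon, differed by 0.53 ± 0.30. All 8 smooth muscle genes had a log2 fold change above 0, with a median of 0.40, beside 0.08 over all named genes. Median deviations of the list were 0.31, 0.14, -0.65 and -0.66 on Control replicates 1 to 4 and 0.15 to 0.42 on the CoA arrays. Control replicates 1 and 2 thus lay near the CoA arrays, and replicates 3 and 4 below them. MYH9, the non-muscle myosin heavy chain, has no probe named here.

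Osteopontin and inflammatory genes were next. SPP1 encodes osteopontin, a secreted matrix phosphoprotein made by macrophages, bone cells and activated smooth muscle cells. Its log2 signal was 12.48, 10.83, 9.60 and 9.40 in Control and 13.43, 13.47, 12.48 and 14.37 in CoA. The highest Control, replicate 1, and the lowest CoA array, replicate 3, met at the same value to 2 decimals without overlapping. CoA minus Control came to 2.86 ± 0.65 in log2 (adjusted p = 0.217 in limma), and 2.85 without CoA replicate 2 or 3.497 without Control replicate 1. SPP1 was the only one of 14 macrophage and myeloid genes that was called (list median 0.20), and CTSK, the cathepsin of osteoclasts and macrophages, had a log2 fold change of -0.11 that became 0.28 with 75th percentile scaling. In the T cell and thymus list, 1 of 10 genes was higher and 1 lower. The T cell surface glycoprotein CD5 was lower by 1.27 ± 0.52 and the recombinase gene RAG2 higher by 1.21 ± 0.54 on the log2 scale. Neither held without CoA replicate 2, at -1.06 and 0.70. CD5 also lost its call without Control replicates 2, 3 or 4 or CoA replicate 1 (-1.31 to -0.80), and RAG2 without Control replicates 1, 3 or 4 or CoA replicate 4 (1.01 to 1.33). CD247, the zeta chain of the T cell receptor, was detected on too few arrays to be tested. Its brightest probe was at 7.13, 5.08, 6.25 and 6.26 in Control and 2.91, 3.84, 5.34 and 3.88 in CoA, where 2 arrays were well above background and replicate 3 overlapped Control replicate 2.

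Among 18 cytokine, chemokine and related genes, 2 were called, both higher, beside 4.49% of all named genes called higher. IL1A encodes the alarmin interleukin 1 alpha and was dim, at 5.05, 5.97, 4.61 and 3.89 in Control and 7.83, 5.90, 5.79 and 8.80 in CoA. CoA replicates 1 and 4 were well above the rest, and replicates 2 and 3 lay just under Control replicate 2. In log2 units CoA differed by 2.20 ± 0.70, it held without each single array, and the exact permutation p was 0.0857. Its 2 other tested probes gave 1.25 and 0.42, the latter not past the criterion, and normexp gave 1.17. PTGS2, the inducible cyclooxygenase, had a log2 fold change of 1.00 ± 0.43. It lost its call without Control replicates 1, 3 or 4 or CoA replicates 1, 2 or 3, with 0.74 to 1.03. IL6 was not called. Its log2 signal was 11.61 on CoA replicate 3, 7.56 to 8.01 on the other CoA arrays, 9.30 on Control replicate 3 and 6.40 to 7.34 on the other Controls. The difference in mean log2 signal was 1.36 ± 1.1, and all 5 tested probes gave 1.36 to 1.54. The list median was 0.26.

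**Figure D3:**
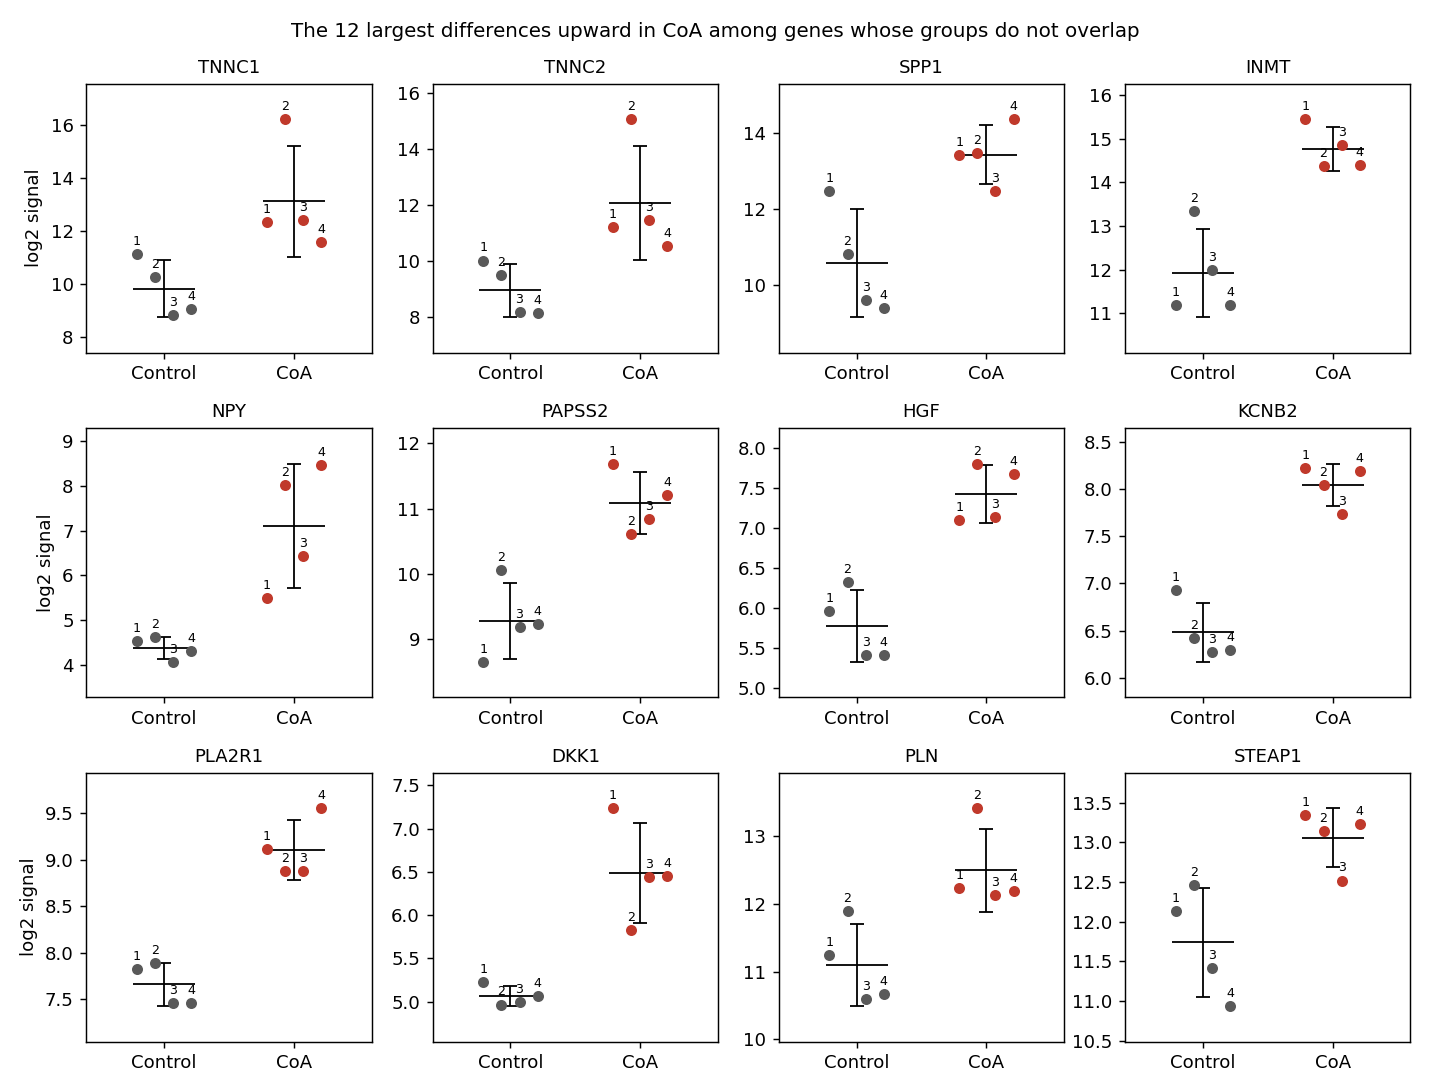
Log2 signal of the 12 genes with the largest differences upward in CoA among called genes whose groups do not overlap, each on its own y axis. Points are arrays, numbers are replicate numbers, and lines give the mean ± SD of 4 arrays. CoA replicate 2 is the highest point for TNNC1, TNNC2, HGF and PLN, and CoA replicate 4 for SPP1, NPY and PLA2R1.

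INMT, a methyltransferase of tryptamine and related amines, had 11.20, 13.34, 12.002 and 11.18 in Control and 15.45, 14.37, 14.86 and 14.40 in CoA. Every CoA array lay above the highest Control, replicate 2. The log2 fold change was 2.84 ± 0.48 (adjusted p = 0.217 in limma), and 2.97 without CoA replicate 2. PAPSS2 makes the activated sulfate that sulfotransferases use, for matrix proteoglycans among others. It had 8.65, 10.06, 9.19 and 9.22 in Control and 11.69, 10.61, 10.84 and 11.21 in CoA. On the log2 scale the difference was 1.81 ± 0.49, and all 5 of its tested probes passed, at 1.66 to 1.96. PLA2R1, the phospholipase A2 receptor, differed by 1.45 ± 0.30, with the Controls at 7.46 to 7.89 and the CoA arrays at 8.87 to 9.55. Of its 3 tested probes 2 passed, and the third had 0.27. STEAP1, a membrane metalloreductase, had 10.94 to 12.46 in Control and 12.52 to 13.35 in CoA, with 1.32 ± 0.35.

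HGF, hepatocyte growth factor, which mesenchymal cells secrete and epithelium and endothelium sense through MET, was at 5.96, 6.32, 5.41 and 5.41 in Control and 7.09, 7.80, 7.13 and 7.66 in CoA. The groups were clearly apart, the log2 fold change was 1.65 ± 0.40, and with normexp background correction it was 0.96 and no longer past 2-fold. DKK1, a secreted antagonist of WNT signaling, had nearly equal Controls, 4.97 to 5.23, and CoA arrays of 7.24, 5.83, 6.44 and 6.45. CoA minus Control came to 1.42 ± 0.29 in log2, which normexp reduced to 0.66, below 2-fold. RLN1, a relaxin, had the largest difference upward of all named genes, 4.27 ± 1.63. It had 8.24, 9.21, 5.38 and 4.89 in Control and 15.33, 10.50, 7.14 and 11.81 in CoA. CoA replicate 3 lay inside the Control range, the arrays of each group spread widely, and the exact permutation p was 0.0857. Its call was lost without Control replicate 3 (3.75), Control replicate 4 (3.59), CoA replicate 1 (2.89) or CoA replicate 4 (4.06). It was 5.62 without CoA replicate 3 and 5.03 without Control replicate 2. PRLR, the prolactin receptor, was the 1 growth factor or receptor gene of 10 that was lower, at -1.59 ± 0.62. It held neither without CoA replicate 2 (-1.55) nor without CoA replicate 1 (-1.26), Control replicate 3 (-1.54) or Control replicate 4 (-1.45).

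Among 6 measured nerve and Schwann cell genes, the neuropeptide gene NPY was higher in CoA. Its product is the transmitter that sympathetic endings release beside noradrenaline. The log2 signal of NPY was 4.53, 4.62, 4.08 and 4.30 in Control and 5.49, 8.02, 6.44 and 8.48 in CoA. The Controls were dim and close together, while the CoA arrays spread widely above them. In log2 units CoA differed by 2.72 ± 0.56 for the brightest probe (adjusted p = 0.217 in limma), and 2.72 to 4.09 over its 5 tested probes, all of which passed. With normexp the value was 1.14, still past 2-fold. All 6 genes of the list had a log2 fold change above 0, with a median of 0.77, beside 0.08 over all named genes. Without CoA replicate 2 the list median was 0.58, beside 0.006 over all named genes, and NPY was at 2.42.

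Of 44 ion channel genes, 3 were higher and 0 lower in CoA (in limma, at the unadjusted p). Of all named genes, 4.49% were higher and 6.37% lower. KCNB2, a delayed-rectifier potassium channel subunit, was called under every alternative. It had 6.93, 6.42, 6.28 and 6.29 in Control and 8.22, 8.04, 7.73 and 8.18 in CoA, with no overlap and little spread. The difference in mean log2 signal was 1.56 ± 0.29 (adjusted p = 0.217 in limma), 1.57 without CoA replicate 2, and all 5 probes passed. CACNB2, a calcium channel subunit, was higher by 1.34 ± 0.55, although Control replicate 2 (9.32) lay above CoA replicates 1, 3 and 4 (9.18, 8.06 and 9.10). It was lost without Control replicates 1, 3 or 4 or CoA replicates 1, 2 or 4 (1.07 to 1.32), and 1 of its 6 probes passed. KCND2 was higher by 1.17 ± 0.52 with CoA replicate 2 at 6.26 and all other arrays at 2.86 to 4.08. Without CoA replicate 2 it was at 0.56, and the call was also lost without CoA replicate 1 or any Control (1.03 to 1.29). The list median was 0.38, and 0.11 without CoA replicate 2.

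Of 50 solute carriers and pumps, 5 were higher and 5 lower, and without CoA replicate 2, 1 was higher and 5 lower. Over all 958 named genes, 4.49% were higher and 6.37% lower, and without CoA replicate 2, 35 genes were higher and 48 lower. ATP1B1, the beta subunit of the sodium pump, had 8.20 to 8.64 in Control and 9.48, 10.52, 8.65 and 9.89 in CoA. Its log2 fold change was 1.22 ± 0.40, and 0.92, under 2-fold, without CoA replicate 2. SLC5A10, a sodium-coupled sugar carrier, had 1.01 ± 0.39, and 0.64 without CoA replicate 2 or 0.84 without Control replicate 3. SLC2A1, the glucose carrier GLUT1, had 10.14 to 11.39 in Control and 11.13 to 12.34 in CoA, a log2 fold change of 1.11 ± 0.47. Its call was lost without Control replicates 1, 3 or 4 or CoA replicates 1, 2 or 4 (0.92 to 1.16). On the other side, SLC25A20 brings acylcarnitines into mitochondria for fat oxidation. It had 9.52, 8.78, 8.83 and 8.89 in Control and 7.61, 5.25, 8.75 and 7.08 in CoA, where replicate 3 nearly reached the Controls. On the log2 scale the difference was -1.83 ± 0.61, and -1.19 without CoA replicate 2. SLC1A5, a glutamine carrier, was at -1.55 ± 0.56 and lost its call without Control replicate 3 (-1.39), Control replicate 4 (-1.30) or CoA replicate 1 (-1.23). Of 26 receptors of transmitters and vasoactive agents, 1 was higher and 1 lower, and without CoA replicate 2, 1 was higher and 2 lower. The serotonin channel subunit HTR3B was at 1.23 ± 0.40, and 0.87, under 2-fold, without Control replicate 2.

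Of 6 measured fat cell genes, 2 were lower in CoA, unevenly among the rabbits, and 3 were lower without CoA replicate 2. PPARG, the master regulator of adipocyte differentiation, had 11.44, 9.19, 10.68 and 10.76 in Control and 5.22, 7.53, 9.15 and 7.46 in CoA. The lowest Control, replicate 2, was barely above the highest CoA array, replicate 3, and the groups did not overlap. CoA minus Control came to -3.17 ± 0.89 in log2 (adjusted p = 0.243 in limma), and -3.23 without CoA replicate 2. Leaving out CoA replicate 1 gave -2.47, leaving out CoA replicate 3 gave -3.78, and normexp gave -2.57. ADIPOQ, the adipocyte hormone adiponectin, had 6.01, 4.94, 7.44 and 7.64 in Control and 1.45, 3.35, 5.89 and 3.36 in CoA, where 2 arrays were well above background. CoA replicate 3 lay inside the Control range. In log2 units CoA differed by -2.99 ± 0.98, and -0.99 with normexp, which ended the call. Leaving out CoA replicate 1 gave -2.31, and leaving out CoA replicate 3 gave -3.79. LPL, the lipase that frees fatty acids from lipoproteins, differed by -1.49 ± 0.74 and was not called, with 8.70 on CoA replicate 1 and 10.82 to 13.51 on the other arrays. The median log2 fold change of the 6 genes was -1.50, beside 0.08 over all named genes, of which 6.37% were called lower. Median deviations of the list were 0.17 to 0.88 on the Control arrays, with replicate 2 the lowest, and -2.55, -0.50, 0.09 and -1.20 on CoA replicates 1 to 4. LEP, leptin, was at 5.12 to 6.40 on the 8 arrays, with a log2 fold change of 0.17 ± 0.31. How much fat each ring carried was not tested.

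The brown fat uncoupler UCP1 was detected on too few arrays to be tested. Its brightest probe was at 6.19, 4.13, 7.09 and 7.33 in Control, all well above background, and at 2.87, 3.65, 2.91 and 2.95 in CoA, where 1 array was above background. PTGER3, a prostaglandin E2 receptor, was the vasoactive receptor gene that was lower. Its Controls lay at 11.63 to 12.01, and the CoA arrays at 6.996, 9.85, 11.79 and 9.50, so CoA replicate 3 lay among the Controls and replicate 1 far below them. The difference in mean log2 signal was -2.33 ± 0.82, and -2.44 without CoA replicate 2. Leaving out CoA replicate 1 gave -1.49, and leaving out CoA replicate 3 gave -3.09. THRSP, a lipogenic factor of fat and liver that is in no list here, was lower by 2.55 ± 1.02 on the log2 scale. CoA replicate 3 was at 10.71, among the Controls (8.61 to 11.05), and CoA replicates 1, 2 and 4 were at 5.57, 7.11 and 7.27. Its call was lost without CoA replicates 1, 2 or 4 or Control replicates 1, 3 or 4 (-2.45 to -1.86). THRSP and LEP were picked after their values were seen.

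**Figure D4:**
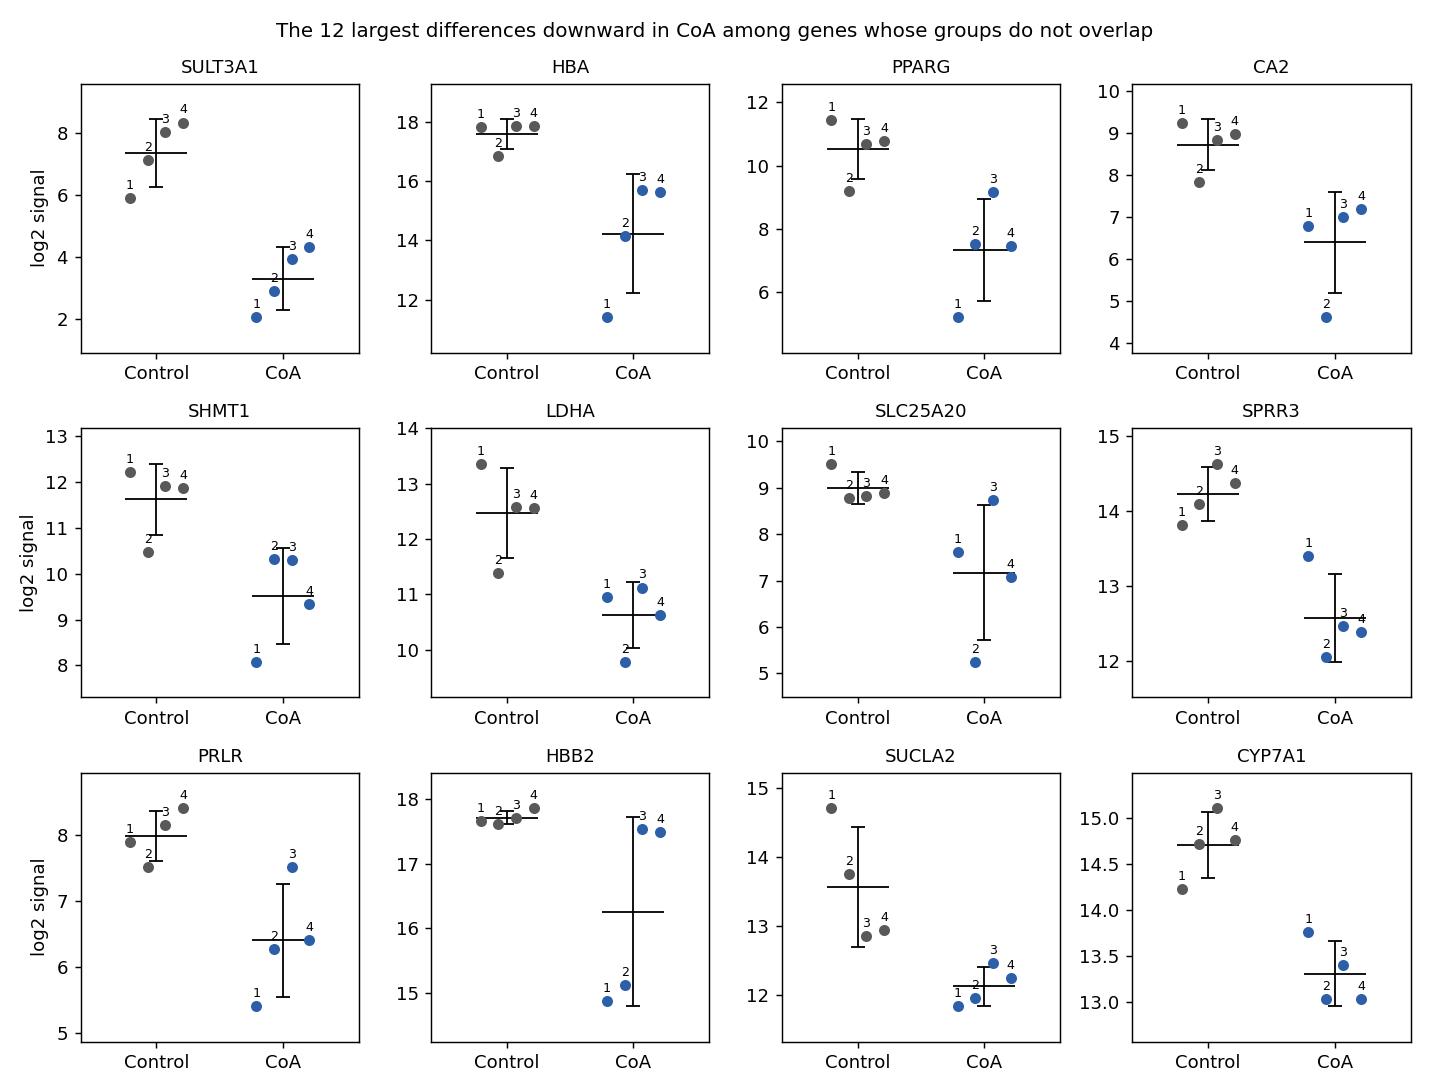
Log2 signal of the 12 genes with the largest differences downward in CoA among called genes whose groups do not overlap, each on its own y axis. Points are arrays with their replicate numbers, and lines give the mean ± SD of 4 arrays. CoA replicate 1 is the lowest point for SULT3A1, HBA, PPARG, SHMT1 and PRLR, and CoA replicate 2 for CA2, LDHA, SLC25A20 and SPRR3.

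Both measured globin genes were lower in CoA. HBA, alpha globin, had 17.82, 16.84, 17.85 and 17.85 in Control, near the top of the scale, and 11.41, 14.13, 15.72 and 15.62 in CoA. Its log2 fold change was -3.37 ± 0.85 (adjusted p = 0.227 in limma), -3.34 without CoA replicate 2, and all 3 probes passed. It was smaller without CoA replicate 1 (-2.43) and with 75th percentile scaling (-2.54). HBB2, a beta globin, was lower on CoA replicates 1 and 2 (14.87 and 15.11), while replicates 3 and 4 (17.55 and 17.50) lay just under the Controls (17.62 to 17.86). On the log2 scale the difference was -1.46 ± 0.57, and its call was lost without CoA replicate 1 (-0.997), CoA replicate 2 (-1.08) or Control replicate 4 (-1.41). The 75th percentile scaling also ended it, at -0.63. CA2, a carbonic anhydrase that red cells hold in quantity, had 9.23, 7.84, 8.83 and 8.97 in Control and 6.77, 4.61, 6.995 and 7.19 in CoA. CoA minus Control came to -2.32 ± 0.86 in log2, lost without CoA replicate 2 (-1.73) or Control replicate 1 (-2.15), and -1.58 with normexp. BPGM, the red cell enzyme that sets the oxygen affinity of hemoglobin, was at -1.69 ± 0.57 and held without each array, but not with 75th percentile scaling (-1.14). Of its 4 tested probes 2 passed. BPGM is outside the naming rule and was picked after its values were seen. How much blood remained in the rings was not tested.

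Of 17 genes of glycolysis and gluconeogenesis, 5 were lower in CoA (GPI, ALDOA, TPI1, GAPDH and LDHA), 1 was higher (SLC2A1, described above) and 11 were not called. Their log2 fold changes were above 0 for 8 and below 0 for 9. Of all named genes, 6.37% were lower and 4.49% higher. LDHA, lactate dehydrogenase A, had 13.36, 11.38, 12.57 and 12.55 in Control and 10.95, 9.78, 11.12 and 10.63 in CoA. The lowest Control, replicate 2, lay just above CoA replicate 3, and the groups did not overlap. In log2 units CoA differed by -1.85 ± 0.66, and -1.57 without CoA replicate 2. All 5 probes passed, but it lost its call without Control replicate 1 (-1.55). GAPDH, often used as a reference gene, had 14.31, 11.19, 12.998 and 12.89 in Control and 11.04, 12.38, 11.83 and 10.49 in CoA. Control replicate 2 lay among the CoA arrays, and CoA replicate 2 close to the Controls. The difference in mean log2 signal was -1.41 ± 0.63, and -1.73 without CoA replicate 2. It was lost without Control replicates 1, 3 or 4 or CoA replicates 1, 3 or 4 (-1.55 to -0.93). ALDOA, at -1.48 ± 0.63, was lost without Control replicates 1, 3 or 4 or CoA replicates 1, 3 or 4 (-1.49 to -1.13), and was -2.13 without Control replicate 2. TPI1, at -1.33 ± 0.58, was lost without Control replicates 1, 3 or 4 or CoA replicates 1 or 4 (-1.24 to -1.10). GPI, at -1.37 ± 0.59, was lost without Control replicates 1, 3 or 4 or CoA replicates 1, 3 or 4 (-1.46 to -0.81). GPI is outside the naming rule and was picked after its values were seen, as the remaining called gene of the list. Control replicate 2 lay within the CoA range for GAPDH, TPI1 and GPI, and below every CoA array for ALDOA. The list counts moved with single arrays, to 0 higher and 7 lower without CoA replicate 2 and to 0 higher and 1 lower with Control replicates 3 and 4 as 1 sample. The list median was -0.06, and -0.59 without CoA replicate 2.

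SHMT1, SUCLA2 and VDAC3 were lower in CoA. SHMT1, which moves one-carbon units from serine to folate, had 12.22, 10.48, 11.92 and 11.88 in Control and 8.08, 10.33, 10.30 and 9.35 in CoA. Its log2 fold change was -2.11 ± 0.66 (adjusted p = 0.266 in limma), -2.38 without CoA replicate 2, and all 5 probes passed, at -2.14 to -2.01. SUCLA2, a subunit of succinyl-CoA ligase in the citric acid cycle, had 14.71, 13.76, 12.86 and 12.94 in Control and 11.85, 11.96, 12.47 and 12.26 in CoA, a log2 fold change of -1.43 ± 0.43. It was -0.94, below 2-fold, with 75th percentile scaling. VDAC3, a channel of the outer mitochondrial membrane, had 11.48 to 12.40 in Control and 10.15 to 10.99 in CoA, with -1.38 ± 0.32. The groups of these 3 genes did not overlap, and each held without any single array. VDAC3 is outside the naming rule and was picked after its values were seen. WARS1, the tryptophanyl-tRNA synthetase, and EIF4G1, a scaffold of translation initiation, were the 2 called, both lower, of 22 ribosome and translation genes. Their log2 fold changes were -1.79 ± 0.73 and -1.46 ± 0.57. WARS1 was lost without Control replicates 1, 3 or 4 or CoA replicates 2 or 4 (-1.80 to -1.21) and was -2.42 without Control replicate 2, and EIF4G1 without Control replicates 1, 3 or 4 or CoA replicate 2 (-1.34 to -1.12).

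Detoxifying enzymes held the largest difference downward. SULT3A1, an amine sulfotransferase, had 5.89, 7.14, 8.02 and 8.33 in Control and 2.06, 2.89, 3.93 and 4.31 in CoA, where 1 array was well above background. On the log2 scale the difference was -4.05 ± 0.95 (adjusted p = 0.218 in limma), and -1.64 with normexp, so its size depended on how the background was treated. CBR1, a carbonyl reductase, had 9.34, 7.72, 8.52 and 9.13 in Control and 6.36, 4.03, 7.93 and 6.74 in CoA. CoA minus Control came to -2.41 ± 0.76 in log2, -1.67 without CoA replicate 2 and -1.56 with normexp, and CoA replicate 3 overlapped Control replicate 2. ADH1A, an alcohol dehydrogenase, had 15.02 to 15.78 in Control and 13.26, 15.32, 13.97 and 13.03 in CoA. CoA replicate 2 alone lay among the Controls, and the log2 fold change of -1.61 ± 0.47 was -2.09 without it. Scaling to the 75th percentile took it to -0.96, below 2-fold. Of 41 xenobiotic metabolism genes, 5 were lower and INMT was higher, and without CoA replicate 2, 3 were lower and 2 higher. Over all named genes, 6.37% were lower and 4.49% higher. The list median was -0.10, which turned to 0.05 with 75th percentile scaling. CYP7A1, the rate-limiting enzyme of bile acid synthesis, was the 1 of 8 lipid metabolism genes called, with 14.23 to 15.11 in Control and 13.03 to 13.77 in CoA. In log2 units CoA differed by -1.40 ± 0.32, and -0.85 with 75th percentile scaling, which ended the call. Its other tested probe gave -0.20.

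Of 8 metalloproteinases and inhibitors, 1 was higher and 2 were lower, beside 4.49% and 6.37% of all named genes. TIMP1, an inhibitor of metalloproteinases, was higher, with 12.74, 12.19, 11.70 and 11.53 in Control and 13.42, 13.25, 12.62 and 13.34 in CoA. The difference in mean log2 signal was 1.12 ± 0.40, and 0.95, under 2-fold, without Control replicate 4. TIMP4, the inhibitor most abundant in heart and fat, was lower, with 9.66, 7.99, 11.31 and 11.38 in Control and 5.60, 6.57, 8.58 and 7.54 in CoA. Its log2 fold change was -3.01 ± 0.91, and -2.84 without CoA replicate 2. It was -3.71 without Control replicate 2 and -2.35 with normexp. CoA replicate 3 lay above Control replicate 2. MMP1, interstitial collagenase, was lower by 1.15 ± 0.43 on the log2 scale, with 7.39 to 8.42 in Control and 6.33 to 7.25 in CoA, and lost its call without Control replicate 3 (-0.97) or CoA replicate 1 (-1.01). The 5 other measured genes of this list were not called. SPRR3, a cornifin of squamous epithelium, was lower by 1.65 ± 0.35 for its brightest probe, but its 5 tested probes ran from -1.65 to 1.00 with a mean of 0.11, so the gene gave no single direction.

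Structural genes of the wall gave no calls under quantile normalization with all 8 arrays. Of 9 fibroblast and matrix genes 0 passed 2-fold with an unadjusted p under 0.05 in limma. Without CoA replicate 2, 1 of them was called higher, and 1 was with 75th percentile scaling. OGN, the proteoglycan osteoglycin, and MGP, the matrix Gla protein that keeps arteries from calcifying, had log2 fold changes of -0.09 ± 0.20 and -0.03 ± 0.19. Both turned with 75th percentile scaling, to 0.82 and 0.76. MGP was at the top of the quantile scale, 18.09, on 7 of the 8 arrays, where quantile normalization leaves little room for a difference. The list median moved from -0.09 to 0.81 with that scaling. Of 7 endothelial genes 0 were called, with VCAM1 at -0.40 ± 0.40 (0.05 with 75th percentile scaling) and ACE at 0.17 ± 0.47 (-0.33 without CoA replicate 2). Likewise 0 genes were called of 13 in complement and coagulation, 27 kinases, phosphatases and phosphodiesterases, 10 in heat shock and proteostasis and 4 B cell genes. Of the 27, 1 was called higher without CoA replicate 2 and 3 with 75th percentile scaling. HP, haptoglobin, differed by -1.25 ± 0.61 with Control replicate 2 (14.88) among the CoA arrays (14.64 to 16.40) and the other Controls at 16.96 to 17.14. CAMK2D, a calcium and calmodulin-dependent kinase of muscle, differed by 0.92 ± 0.37, under 2-fold. CRYAB, a small heat shock protein of muscle, differed by -0.45 ± 0.47, or 0.21 with 75th percentile scaling. PRKCB, a protein kinase C of lymphocytes and vessels, differed by -0.44 ± 0.51.

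**Figure D5:**
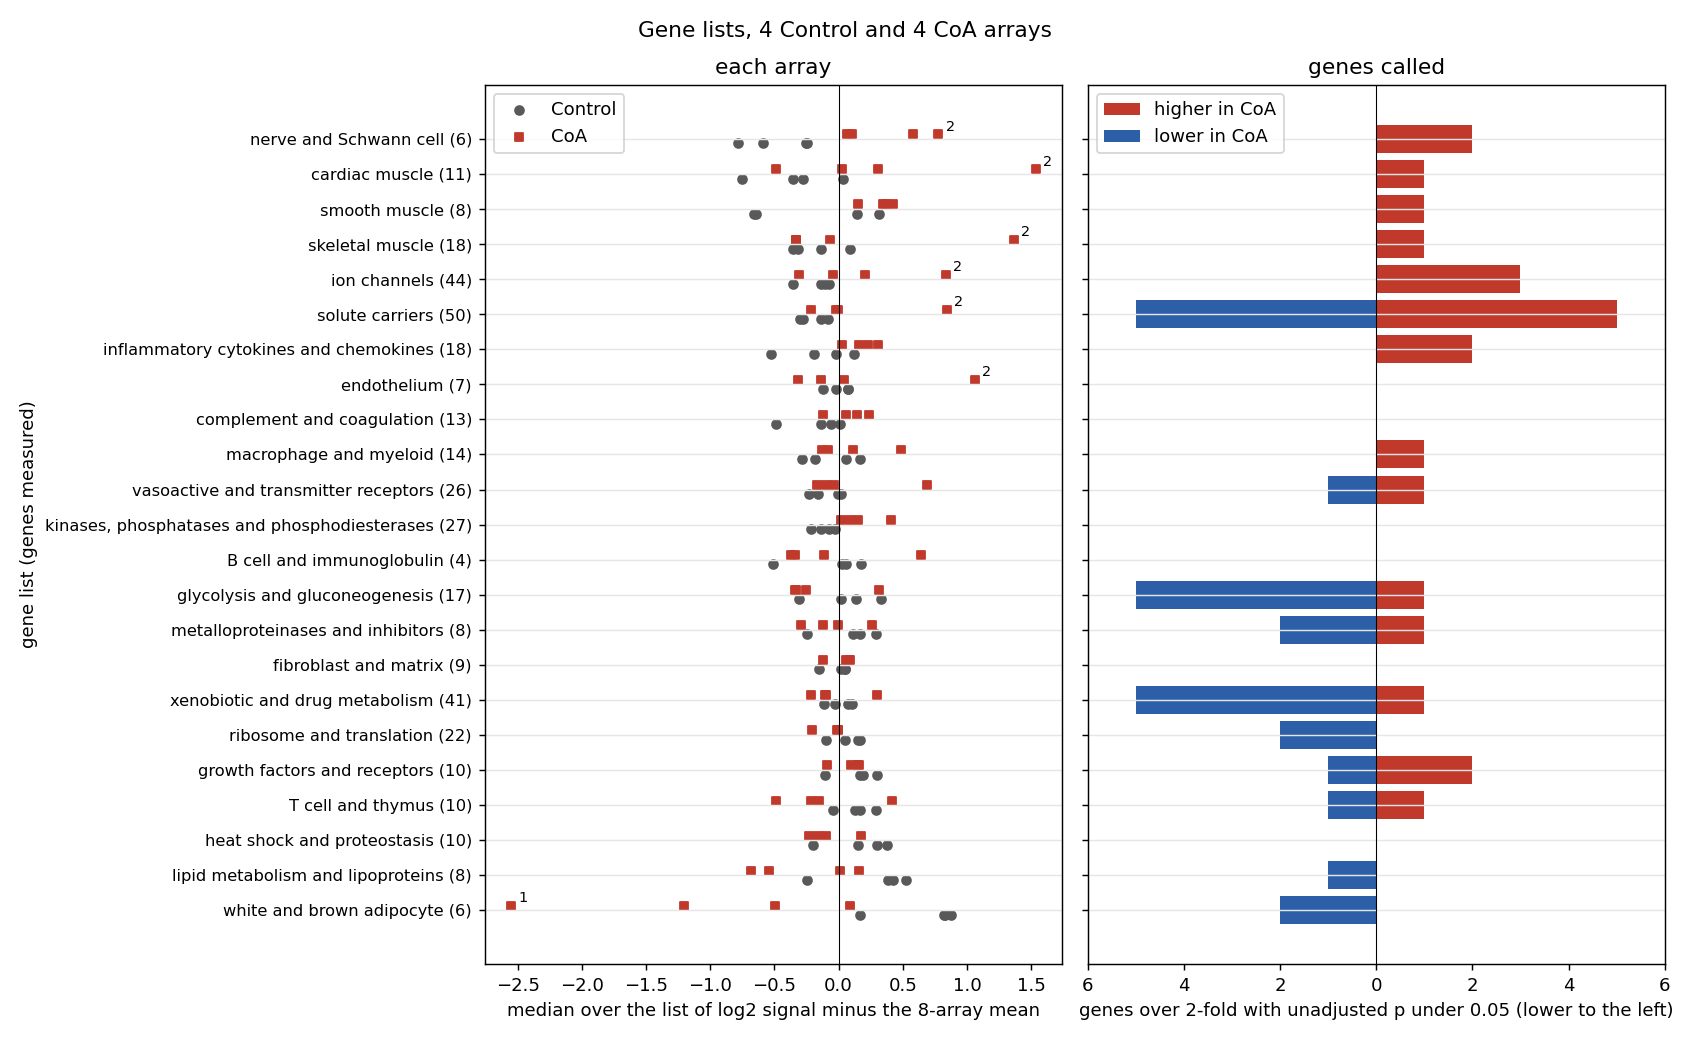
Left, median over each gene list of the log2 signal minus the gene's mean over the 8 arrays, 1 point per array (x axis), for lists with at least 3 measured genes (y axis, number measured in brackets); numbers mark the replicates of CoA arrays far from 0. Right, number of called genes, higher to the right and lower to the left. CoA replicate 2 lies far to the right in the cardiac (1.53) and skeletal muscle (1.37) lists and also in the endothelium (1.06), solute carrier and ion channel lists (0.84 each), and CoA replicate 1 far to the left in the adipocyte list (-2.55).

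Beyond single arrays, other settings ended calls of genes described above. With normexp, calls ended for ADIPOQ, CD5, DKK1, EIF4G1, HGF, HTR3B, KCND2, MMP1, PRLR, PTGS2, RAG2, SLC5A10 and TPI1. With Control replicates 3 and 4 as 1 sample they ended for ALDOA, CACNB2, CD5, EIF4G1, GAPDH, GPI, HBB2, KCND2, MLLT11, PRLR, PTGS2, RAG2, RLN1, SLC1A1, SLC1A5, SLC2A1, SLC5A10, THRSP, TIMP1, TPI1 and WARS1. With 75th percentile scaling they ended for ADH1A, BPGM, CYP7A1, GAPDH, GPI, HBB2, KCND2, RAG2, SLC1A5, SUCLA2 and TPI1. The test without moderation kept 61 of the 104 calls, and the fit on all 12 arrays kept 70. Among the calls lost were PTGER3 without moderation, and LDHA, SLC25A20, MMP1 and SUCLA2 on all 12 arrays. Taking the mean of a gene's tested probes ended the calls of CACNB2, CYP7A1, PTGS2, SLC1A1 and SPRR3.

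A smaller set of genes kept the call under every alternative in which they could be fitted, 11 higher and 9 lower. The 11 higher genes were TNNC1, TNNC2, SPP1, INMT, NPY, IL1A, PAPSS2, GC, KCNB2, PLA2R1 and STEAP1. GC is the vitamin D binding protein, with a log2 fold change of 1.77 ± 0.57. The 9 lower genes were SULT3A1, HBA, PPARG, TIMP4, CBR1, SHMT1, THEMIS2, ADH2-1 and VDAC3. THEMIS2, a signaling adaptor of B cells and macrophages, differed by -2.10 ± 0.59, and by -1.02, barely past 2-fold, with normexp. ADH2-1, an alcohol dehydrogenase, differed by -1.76 ± 0.58, and by -1.27 with normexp. With normexp GC was at 1.28. GC, THEMIS2 and ADH2-1 were picked for having passed every alternative. In the combination of both doubts, without CoA replicate 2 and with Control replicates 3 and 4 as 1 sample, 48 genes were called, among them 16 of the 43 higher and 20 of the 61 lower genes.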

How the data were processed

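The deposited files hold 1 scanned array per sample, read by the authors with Agilent Feature Extraction 11.0.1.1. Their processed signal is a background-corrected intensity on a linear scale, which the study normalized by quantiles in GeneSpring. Here, log2 of that signal was quantile normalized over 12 arrays, without control spots and outlier-flagged spots (8 to 22 per array), and the spots of a probe were averaged. No tested spot was saturated. A probe was tested when most of its spots were flagged positive and well above background on at least 8 arrays. The number of arrays limits the precision. Differences were fitted with limma 3.58.1 in R 4.3.3 on 11 arrays, which shared 1 estimate of the spread. Corrected replicate 3 was left out as in the study. Calls were over 2-fold with an unadjusted p under 0.05, and Benjamini-Hochberg adjusted p-values were taken over all probes tested. Single genes also had a two-sided exact permutation test of the 8 arrays.

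Probe names came from RefSeq accessions matched to the RefSeq gene table of mOryCun1.1. Of 4511 probes with such an accession, 3368 had a symbol. No coordinates are given. Each gene stands by its tested probe of highest mean signal over the 11 arrays. Named genes were the 12 with the largest differences each way among called genes without overlap, up to 4 called members of each list with at least 3 measured genes or its 2 brightest members where fewer than 2 were called, and 12 genes set by name. Genes picked after their values were seen are marked. The values of 1 called gene are not reported here. Members and lists were chosen with earlier results of these data known, so no list was tested as a set. No list member for cell division was measured. The steps were tested on simulated data. Python 3.11.15, pandas 2.3.3 and matplotlib 3.10.9 made the summaries and plots. Alternatives changed the arrays in the fit, array weights, scaling, background correction (normexp, offset 50), detection, moderation, blocks by replicate number and by scan, and the probes per gene.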

Additional observations from a re-analysis of the deposited data

Results flagged for a closer look

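Among 142 groups of 4 arrays, 2 for each of 71 named genes, 10 held an array whose gap to its nearest neighbor was over Dixon's critical share of the group's whole range. Chance gives such a gap in about 1 in 20 groups, or 7.1 of these. Control replicate 2 was the array in 5 of them. It was low for HBA (gap over range 0.963), HP (0.922), EIF4G1 (0.855) and TPI1 (0.840), and high for CACNB2 (0.847). CoA replicate 2 was high for PLN (0.922) and low for CA2 (0.838). CoA replicate 3 was high for IL6 (0.888) and low for MGP (1.0), where the other 3 CoA arrays tied at the top of the quantile scale. Control replicate 1 was high for SLC25A20 (0.855).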

How the results depend on the processing

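With 4 arrays a group, 0 of 27283 probes passed adjustment in limma, while 3877 had an unadjusted p under 0.05. Array weights gave 11112, no detection filter 1 and a random block for scan 869, and leaving out single arrays gave 0 to 21, with 21 without Control replicate 2. The scan block had an estimated correlation of -0.15, and all 4 CoA arrays share 1 scan time, so scan and group cannot be told apart. The array weights were 7.37 and 6.04 for Control replicates 3 and 4, and 0.21 to 3.63 for the other Control and CoA arrays. The cause of the other changes was not tested. Probes called by fold and unadjusted p numbered 2404, against 5235 with array weights, 3726 without a detection filter, 1020 with normexp, 1278 with detection on all 12 arrays and 1566 with Control replicates 3 and 4 as 1 sample. Leaving out single arrays gave 1544 (Control replicate 4) to 3533 (Control replicate 2), and 1602 without Control replicate 3. The 75th percentile scaling gave 1530 higher and 1221 lower, against 979 and 1425. Named genes called numbered 104, against 222 with array weights, 62 with normexp, 67 without moderation, 60 with Control replicates 3 and 4 as 1 sample and 60 to 156 without single arrays. The combination without CoA replicate 2 and with Control replicates 3 and 4 as 1 sample, chosen after seeing the data, gave 1276 probes, 0 after adjustment, and 48 genes. Replicate numbers did not pair the arrays (correlations of deviations -0.13 to 0.01), and the replicate block gave 2533 probes, 104 genes and 0 after adjustment. Over the named genes and their alternatives, 1359 values kept direction and side of the threshold, 203 lost the call, 18 gained it and 39 reversed. Reversed values were SPRR3 0.11 with the mean of its probes, and ACTA2 -0.092 and MYH11 -0.077 with Control replicates 3 and 4 as 1 sample. Without single arrays, log2 fold changes ran from -0.10 to 0.53 for ACTA2, -0.10 to 0.59 for MYH11, -0.33 to 0.48 for ACE, -0.31 to 0.25 for CTSK, -0.64 to 0.31 for TF, -0.058 to 0.22 for PPP2CA and -0.13 to 0.12 for CALR. With 75th percentile scaling VCAM1 was 0.048, OGN 0.82 (0.40 with the mean of probes), MGP 0.76, CRYAB 0.21, CTSK 0.28, TF 0.38 and CALR 0.56. With array weights ACE was -0.42 and CTSK 0.57. In the combination ACE was -0.27, CTSK 0.13, TF 0.16, PPP2CA -0.0901 (-0.11 with the mean of probes) and CALR 0.13. With Control replicates 3 and 4 as 1 sample TF was 0.31 and CALR 0.11, and with the scan block CALR was 0.11.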
